A study of Callithrix jacchus with 3 samples.

Results

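The 9 genes described here write, keep or erase DNA methylation or, in the case of TRIM28, recruit silencing that goes with it, in stem cells of the common marmoset (Callithrix jacchus), a small New World monkey. The members were chosen by symbol: DNMT3A, DNMT3B, DNMT1, UHRF1, TET1, TET2, TET3, TDG and TRIM28. All 9 symbols matched exactly 1 Ensembl gene ID each, out of 30811 gene rows in the count files, and none was dropped. All 9 had at least 10 counts in every library.

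RNA levels were measured by sequencing for 3 libraries that form 1 group, labelled as extended pluripotent stem cells and called EPSC-like here after the series' own wording. The series title speaks of attempts to derive such cells from marmoset embryonic stem cells. The name stands for cells that, in mouse and human work, were reported to form both embryonic and extraembryonic tissues. No genotype, added agent, culture time or animal age is given in the labels used here, and no parental or control group was analysed here. The titles of the 3 libraries are alike except for the replicate number, so they may share 1 line, and nothing says that they came from separate cultures. P-values therefore speak only for these libraries. Those between libraries set a difference, which may be technical, against counting noise alone. Others set a gene's level against a fixed value, or genes against each other.

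DNA methylation puts a methyl group on cytosine, mostly where a guanine follows. DNMT3A and DNMT3B lay down new methylation, while DNMT1 copies it to the new strand after replication, brought to hemimethylated DNA by UHRF1. The TET enzymes oxidise methylcytosine, and the glycosylase TDG can cut out the oxidised bases so that repair restores plain cytosine. TRIM28 is recruited by KRAB zinc finger proteins and keeps transposable elements and, in mouse and human, imprinted regions silent and methylated. In human and mouse, DNMT3B is abundant in cells of the postimplantation epiblast type and TET1 is the leading TET gene of pluripotent cells.

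Total counts were 40593244 in replicate 3, against 52327369 in replicate 1 and 55224475 in replicate 2. Replicate 3 stood apart from the other two, and this touches each result below: 45.9% of 23432 genes with counts differed between replicates 3 and 1 beyond counting noise, 46.3% between replicates 3 and 2, and 6.85% between replicates 2 and 1 (exact conditional binomial test, two-sided, Benjamini-Hochberg adjusted p under 0.05). The labelled cell type was set beside marker lists. A call above 1 CPM (counts per 1000000 counts, scaled with TMM factors) was made for 56.0% of all genes tested. It was made for 78.3% of genes with a symbol and counts, so it does not by itself mark a cell type. All 8 matched pluripotency markers of 9 listed were called above 1 CPM, among them POU5F1, NANOG and SOX2. Their summed levels were 3793 CPM in replicate 3 and 4003 and 4129 CPM in replicates 1 and 2. That sum holds members that moved apart, as 4 of the 8 were lower in replicate 3 than in both others, 3 of them by at least 1.5-fold, and 3 were higher. Of all genes tested, 22.2% were lower and 17.7% higher in replicate 3 than in both others, and 8.32% were lower by at least 1.5-fold. Of genes with a symbol and counts, 34.3% were lower and 20.7% higher. LIN28A had 350 CPM in replicate 3, against 674 and 725 CPM in replicates 1 and 2, LIN28B 470 CPM, against 742 and 774 CPM, and POU5F1 1185 CPM, against 974 and 972 CPM. The 5 matched fibroblast and mesenchyme markers of 8 listed were also above 1 CPM, with sums of 475, 677 and 634 CPM in replicates 3, 1 and 2. All 5 were lower in replicate 3 than in both others, 2 of them by at least 1.5-fold. COL1A1 led the sum, with 404 CPM in replicate 3, against 546 and 516 CPM in replicates 1 and 2. DCN had 0.98 CPM, against 9.25 and 9.71 CPM. Sums over the matched trophoblast markers with counts (3 genes) were 12.3, 20.6 and 20.8 CPM, over endoderm markers (3 genes) 4.51, 12.1 and 14.5 CPM, and over neural markers (3 genes) 3.83, 7.19 and 7.60 CPM, in the same order of libraries. Of the trophoblast markers, TFAP2A (2.45 CPM in replicate 3, against 12.3 and 12.1 CPM) and CDX2 (0 counts, against 25 and 29) were lower in replicate 3 and KRT7 was higher (9.86 CPM, against 7.80 and 8.24 CPM). Of the endoderm markers 2 were lower and none higher, and of the neural markers 1 was lower and none higher. The trophoblast marker CYP19A1 and the endoderm marker AFP had no counts. In bulk RNA, fewer cells of a type and less RNA per cell cannot be told apart, and the part of such cells in the differences given below was not tested.

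All 9 members were called above 1 CPM (edgeR quasi-likelihood F statistic, two-sided, Benjamini-Hochberg adjusted over all genes), a call made for 56.0% of all genes tested and for 78.3% of genes with a symbol and counts. Against a level of 10 CPM, 8 of 9 passed, a call made for 37.6% of genes tested. The exception was TET2, which was not distinguished from 10 CPM (adjusted p = 0.269, edgeR quasi-likelihood). The members also differed in how much they varied between libraries. In replicate 3, 5 members were lower than in both other libraries (DNMT3A, DNMT1, TET1, TET2 and TET3), and 4 were higher (DNMT3B, UHRF1, TDG and TRIM28). Over all genes tested, 22.2% were lower and 17.7% higher in replicate 3 than in both others. The test counts reads, so genes with many counts, such as most of these members, pass it on small differences. The median log2 ratio of replicate 3 to the mean of replicates 1 and 2 was −0.28 over the 9 members, beside −0.03 over the 15633 genes with at least 10 counts in each library.

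**Figure D1:**
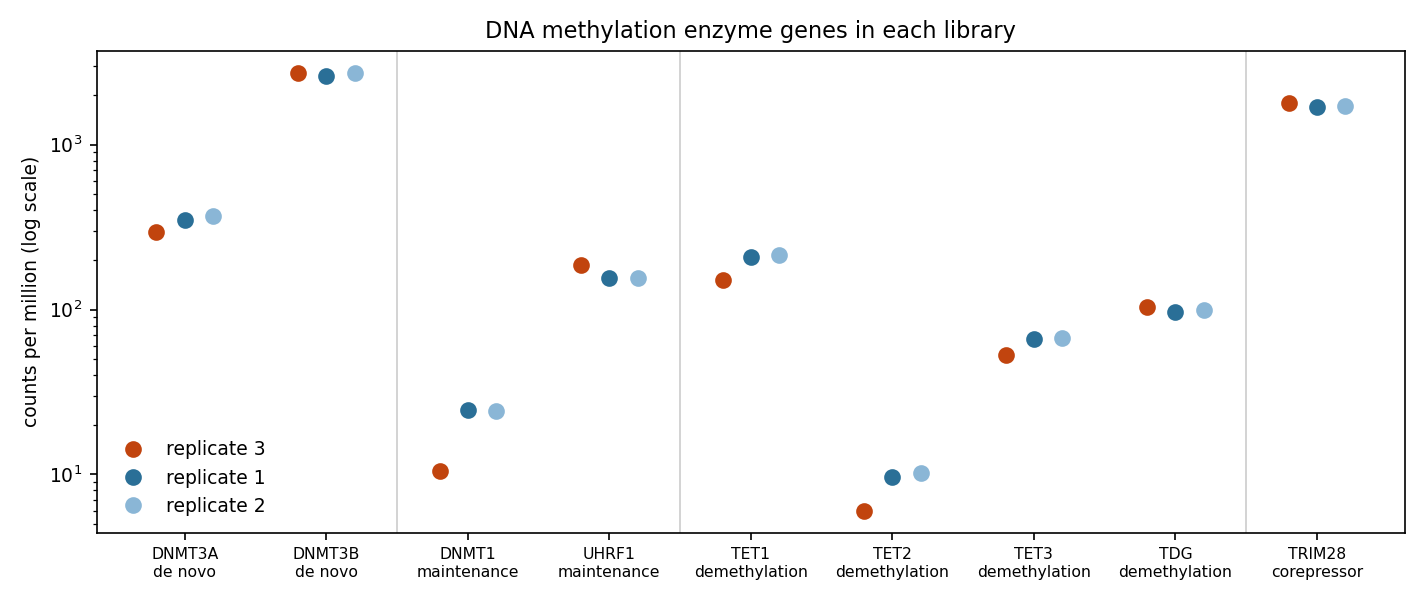
CPM of each member (vertical axis, log scale) in replicate 3 (red), replicate 1 (dark blue) and replicate 2 (light blue), grouped by role along the horizontal axis. Replicates 1 and 2 nearly coincide for every member, while replicate 3 is lower for DNMT3A, DNMT1 and the 3 TET genes and higher for UHRF1. DNMT1 shows the widest gap, at 10.5 CPM in replicate 3 against 24.5 and 24.3 CPM.

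Summed by role, the de novo enzyme genes took the most counts. DNMT3A was lower in replicate 3, while DNMT3B was nearly level, at a ratio of 1.03 to the mean of replicates 1 and 2. DNMT3B (ENSCJAG00000015617) had 111501 counts in replicate 3, against 137468 and 148609 in replicates 1 and 2, which is 2734, 2628 and 2702 CPM in the same order. These are 0.275%, 0.263% and 0.269% of all counts in the libraries. DNMT3B was the steadiest member, with a coefficient of variation of 2.04%, and 94.8% of the 9352 genes that averaged 10 CPM or more varied more. Its ratio of replicate 3 to replicate 1 was 1.04 (95% exact binomial interval of the counts 1.03 to 1.05, adjusted p = 4.64e-22, exact conditional binomial test) and to replicate 2 it was 1.01 (1.004 to 1.02, adjusted p = 0.00771). At this depth such small differences pass a test of counting noise, and the second call was lost when counts were halved, as if both mates of a read pair had been counted.

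DNMT3A (ENSCJAG00000008172) had 12088 counts or 296 CPM in replicate 3, against 18363 counts or 351 CPM in replicate 1 and 20256 counts or 368 CPM in replicate 2. Its mean was 339 ± 37.5 CPM (SD, n = 3). It was lower in replicate 3 by a ratio of 0.845 to replicate 1 (0.825 to 0.864, adjusted p = 2.21e-46, exact conditional binomial test) and 0.805 to replicate 2 (0.787 to 0.823, adjusted p = 1.80e-79). That size is ordinary here, since 47.1% of genes that averaged 10 CPM or more had a larger log2 ratio in either direction. Besides DNMT3B, DNMT3A was the only member that differed between replicates 2 and 1, where the ratios were 1.05 for DNMT3A (adjusted p = 0.000192, exact conditional binomial test) and 1.03 for DNMT3B (adjusted p = 2.11e-11). Within a library, DNMT3B took 9.22 times the counts of DNMT3A in replicate 3, against 7.49 and 7.34 times in replicates 1 and 2. None of these numbers is a ratio of transcript levels, because no lengths of the counted gene models were at hand. The ratio of counts was 1.25-fold higher in replicate 3. Gene length cancels in that comparison only if the libraries cover transcripts alike, which was not tested.

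The maintenance genes parted the most. DNMT1 (ENSCJAG00000005794), the methyltransferase that follows the replication fork, had only 428 counts in replicate 3, against 1281 and 1335 in replicates 1 and 2, which is 10.5, 24.5 and 24.3 CPM. Replicate 3 lay far below the other two, which differed from each other by a ratio of 0.991 (replicate 2 to replicate 1, interval 0.918 to 1.07, adjusted p = 1, exact conditional binomial test). The ratio of replicate 3 was 0.429 to replicate 1 (0.383 to 0.479, adjusted p = 7.54e-57, exact conditional binomial test) and 0.432 to replicate 2 (0.387 to 0.482, adjusted p = 1.53e-56). DNMT1 and TET2 were the 2 members that were lower by at least 1.5-fold in replicate 3 than in both others, as were 8.32% of all genes tested. Among the 9352 genes that averaged 10 CPM or more, 1.46% had a lower log2 ratio of replicate 3 than DNMT1.

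UHRF1 (ENSCJAG00000017420), which reads hemimethylated DNA and the histone H3 tail and brings in DNMT1, went the other way. It had 7630 counts or 187 CPM in replicate 3, against 8126 counts or 155 CPM in replicate 1 and 8500 counts or 155 CPM in replicate 2. Replicate 3 was higher by a ratio of 1.205 to replicate 1 (1.17 to 1.24, adjusted p = 2.47e-30, exact conditional binomial test) and 1.21 to replicate 2 (1.17 to 1.25, adjusted p = 1.55e-32). UHRF1 and DNMT1 thus kept no fixed ratio of counts. UHRF1 took 17.8 times the counts of DNMT1 in replicate 3, against 6.34 and 6.37 times in replicates 1 and 2. That is a 2.81-fold difference, in which gene length cancels only if the libraries cover transcripts alike, which was not tested. The sum of the 2 genes was 198 CPM in replicate 3 and 180 and 179 CPM in replicates 1 and 2, and it was made up mostly of UHRF1.

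**Figure D2:**
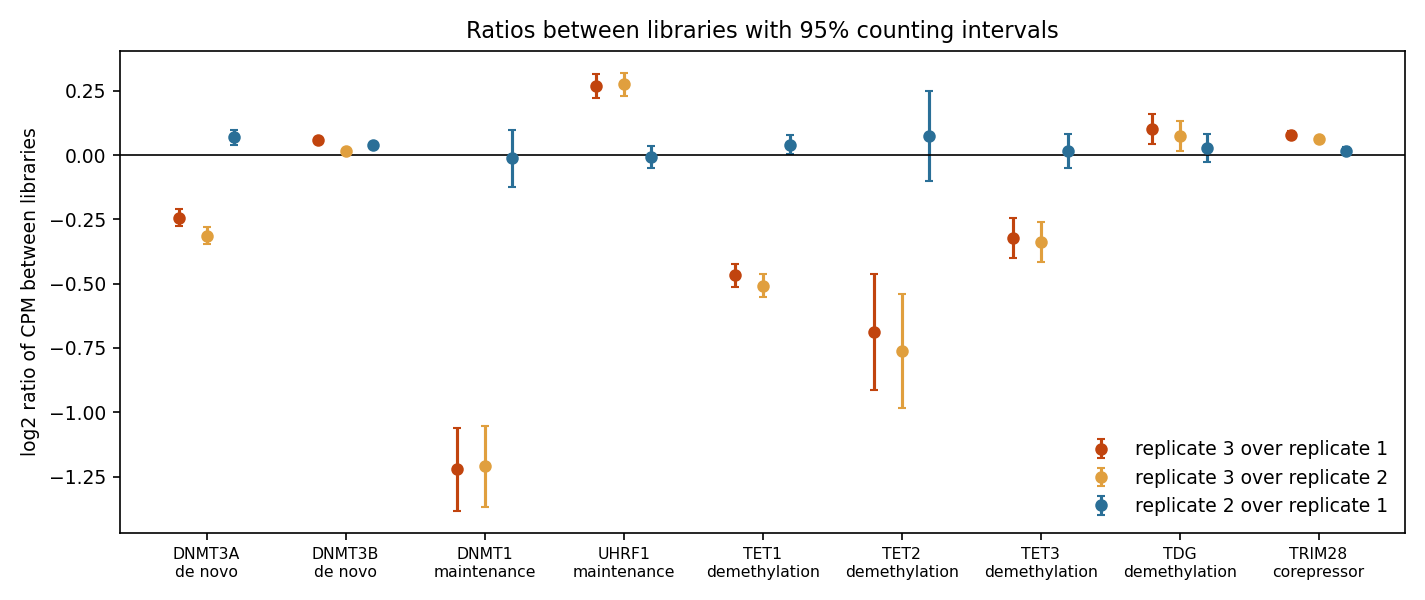
Log2 ratio of CPM between pairs of libraries (vertical axis) for each member (horizontal axis), with 95% exact binomial counting intervals as bars; red is replicate 3 over replicate 1, orange replicate 3 over replicate 2 and blue replicate 2 over replicate 1. The red and orange points of a member lie close together, from about −1.22 for DNMT1 to 0.28 for UHRF1, while the blue points lie between −0.01 and 0.07.

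The demethylation genes split into the oxidases, which were all lower in replicate 3, and TDG, which was slightly higher. TET1 (ENSCJAG00000019005), which oxidises methylcytosine and has a CXXC domain that binds unmethylated CpG sites, had 6148 counts in replicate 3, against 10905 and 11792 in replicates 1 and 2. That is 151, 208 and 214 CPM, with ratios of 0.723 to replicate 1 (0.701 to 0.746, adjusted p = 1.77e-92, exact conditional binomial test) and 0.703 to replicate 2 (0.682 to 0.725, adjusted p = 5.63e-113). Replicate 3 was the low library and replicates 1 and 2 did not differ by the test (ratio 1.03, adjusted p = 0.215, exact conditional binomial test). TET3 (ENSCJAG00000017853), the oxidase known in mouse for acting on the paternal genome of the zygote, had 2170 counts in replicate 3, against 3479 and 3699, or 53.2, 66.5 and 67.3 CPM. Its ratios were 0.800 (0.758 to 0.845, adjusted p = 1.63e-15, exact conditional binomial test) and 0.791 (0.750 to 0.834, adjusted p = 1.70e-17). Of genes that averaged 10 CPM or more, 20.9% had a larger log2 ratio in either direction than TET1, and 39.2% a larger one than TET3.

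TET2 (ENSCJAG00000015737), an oxidase without a CXXC domain of its own, was the member with the fewest counts. It had 245 counts in replicate 3, against 506 and 560 in replicates 1 and 2, or 6.01, 9.67 and 10.2 CPM. Its ratios of 0.621 (0.531 to 0.725, adjusted p = 2.31e-09, exact conditional binomial test) and 0.590 (0.506 to 0.687, adjusted p = 8.95e-12) have wide intervals, as its counts are few. A larger log2 ratio in either direction was seen in 8.35% of genes that averaged 10 CPM or more, though TET2 itself averaged 8.62 CPM. The sum of the 3 TET genes was 210 CPM in replicate 3, against 285 and 292 CPM in replicates 1 and 2. TET1 took 2.83 times the counts of TET3 in replicate 3, against 3.14 and 3.19 times, and 25.1 times those of TET2, against 21.6 and 21.1 times, so the shares within the family shifted by less than its sum.

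TDG (ENSCJAG00000014510), the glycosylase that removes the oxidised bases, had 4247 counts or 104 CPM in replicate 3, against 5078 counts or 97.1 CPM and 5438 counts or 98.9 CPM in replicates 1 and 2. The ratios were 1.07 to replicate 1 (1.03 to 1.12, adjusted p = 0.00206, exact conditional binomial test) and 1.05 to replicate 2 (1.01 to 1.097, adjusted p = 0.0269). The second of these calls was lost with halved counts. TDG relative to TET1 was 1.49-fold higher in replicate 3.

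TRIM28 (ENSCJAG00000000240), the corepressor that brings SETDB1 and heterochromatin proteins to KRAB zinc finger targets, had 72589 counts or 1780 CPM in replicate 3, against 88249 counts or 1687 CPM and 93845 counts or 1707 CPM in replicates 1 and 2. The differences were small, with ratios of 1.06 to replicate 1 (1.05 to 1.07, adjusted p = 6.99e-26, exact conditional binomial test) and 1.04 to replicate 2 (1.03 to 1.05, adjusted p = 9.80e-17). With a coefficient of variation of 2.85%, TRIM28 was next to DNMT3B in steadiness, and 91.1% of genes that averaged 10 CPM or more varied more.

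**Figure D3:**
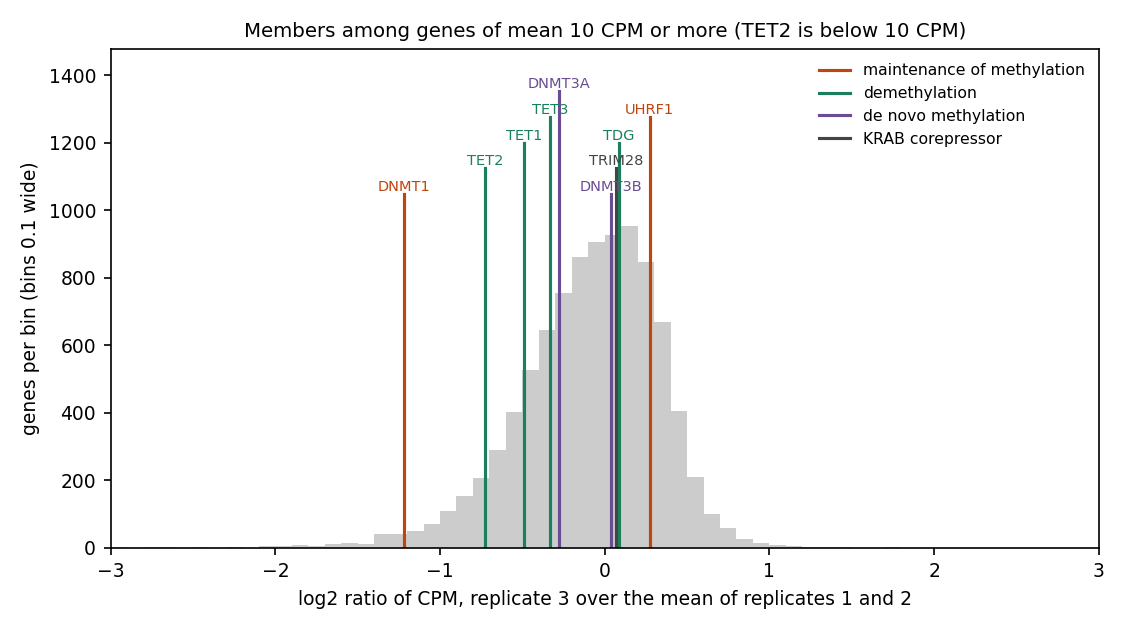
Histogram of the log2 ratio of replicate 3 to the mean of replicates 1 and 2 (horizontal axis, bins of 0.1) for the 9352 genes that averaged 10 CPM or more (vertical axis, number of genes), with a line for each member coloured by role (TET2 itself averaged 8.62 CPM), and 1 gene beyond the axis placed in the outermost bin. The quartiles of these genes are −0.34 and 0.20; DNMT1 at −1.22, TET2 at −0.72 and TET1 at −0.49 stand to the left of both, TET3, DNMT3A, DNMT3B, TRIM28 and TDG lie between them, and UHRF1 at 0.27 stands to the right.

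Set side by side by role, de novo genes summed to 3031 CPM in replicate 3 and 2979 and 3071 CPM in replicates 1 and 2, a ratio of 1.002 to the mean of replicates 1 and 2. Maintenance genes had a ratio of 1.102. The 4 demethylation genes summed to 314 CPM in replicate 3 and 382 and 391 CPM in replicates 1 and 2, a ratio of 0.813, and the 3 TET genes without TDG had a ratio of 0.729. A sum is led by its most counted gene, so the flat de novo sum holds a lower DNMT3A and the higher maintenance sum a lower DNMT1. The de novo sum took 14.4 times the counts of the TET sum in replicate 3, against 10.5 and 10.5 times in replicates 1 and 2. The maintenance sum took 0.941 times the counts of the TET sum in replicate 3, against 0.632 and 0.613 times.

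The order of the members by CPM, which is an order of counts and not of transcript levels, was DNMT3B, TRIM28, DNMT3A, TET1, UHRF1, TDG, TET3, DNMT1 and TET2 on the mean of the log2 values. Of the 8 pairs of neighbours in that order, 7 kept their order in every library with ranges that did not overlap. The exception was TET1 and UHRF1, with 151 and 187 CPM in replicate 3, against 208 and 155 CPM in replicate 1 and 214 and 155 CPM in replicate 2. Their log2 difference was 0.20 ± 0.44 (SD, n = 3), and p was 0.5 by exact permutation of the signs (two-sided), where 3 libraries allow no p below 0.25.

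**Figure D4:**
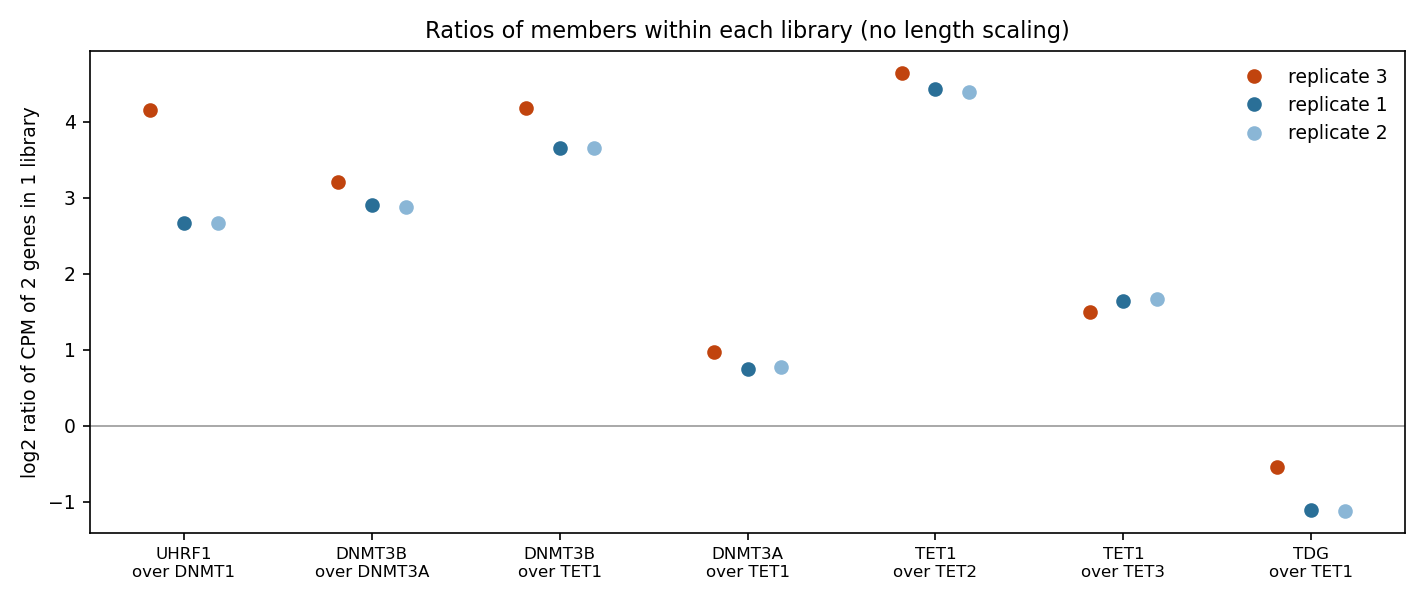
Log2 ratio of CPM of 2 members within 1 library (vertical axis) for 7 pairs of genes (horizontal axis), in replicate 3 (red), replicate 1 (dark blue) and replicate 2 (light blue), without length scaling. Replicates 1 and 2 lie almost on each other in all 7 pairs, and replicate 3 departs most for UHRF1 over DNMT1, at 4.16 against 2.67 and 2.67.

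Other genes of the pathway were read from 5 lists, of which 58 genes matched a symbol and 56 had counts. All 56 were called above 1 CPM. APOBEC1, which encodes a cytidine deaminase, had no counts. Across the lists, 27 genes were lower in replicate 3 than in both other libraries and 12 were higher, or 48.2% and 21.4% of the 56. Of all genes with a symbol and counts, 34.3% were lower and 20.7% higher. That background holds more genes of few counts, as 78.3% of it was called above 1 CPM. Since the test passes more easily on many counts, the shares are not matched in depth. Whether the lists differ from a matched background was not tested.

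Among 16 genes grouped with the writers, not all of them direct partners, 9 were lower and 3 higher in replicate 3. Their median log2 ratio was −0.13. HELLS, a chromatin remodeler needed for normal DNA methylation, averaged 941 ± 102 CPM and was higher in replicate 3 by a ratio of 1.19 to the mean of the other two. PCNA, the replication clamp, was higher by a ratio of 1.24, in the direction of UHRF1. LIG1, of the same list, was lower at a ratio of 0.936, in the direction of DNMT1. USP7, a deubiquitinase that binds DNMT1 and UHRF1, averaged 398 ± 23.5 CPM and fell to a ratio of 0.904, and NSD1, which methylates histone H3 at lysine 36, averaged 302 ± 42.7 CPM and fell to 0.777. The largest differences were in QSER1, reported in human cells to keep bivalent promoters free of methylation together with TET1, at a ratio of 0.483, and in UHRF2, the paralog of UHRF1, at 0.708. PCLAF, a PCNA-binding protein, was the lowest of the list at 8.30 ± 0.779 CPM and did not pass in either pair.

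Among 14 partners of TRIM28 and of histone H3 lysine 9 methylation, 6 were lower and 4 higher in replicate 3, with a median log2 ratio of −0.17. ZNF445, a KRAB zinc finger gene that guards imprinted regions in human, had 557 counts in replicate 3, against 1757 and 1847 in replicates 1 and 2, a ratio of 0.407. ATF7IP, a partner of SETDB1, fell to a ratio of 0.563 while TRIM28 itself was at 1.05. EHMT2 and EHMT1, which work together as histone methyltransferases, went apart at ratios of 1.14 and 0.676. CBX3, a heterochromatin protein, averaged 225 ± 7.82 CPM with a ratio of 1.04 that passed against replicate 1 and not against replicate 2. SUV39H1 was the lowest of the list at 8.96 ± 1.01 CPM.

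Among 14 genes of the demethylation and base excision repair list with counts, 6 were lower and 3 higher, with a median log2 ratio of −0.14. OGT, the glycosyltransferase that binds TET proteins, averaged 416 ± 68.8 CPM and was higher in replicate 3 by a ratio of 1.32, opposite to the 3 TET genes. PARP1, which senses strand breaks, averaged 1269 ± 100.4 CPM and fell to a ratio of 0.869, and IDH1, which makes the TET cosubstrate 2-oxoglutarate, averaged 274 ± 21.9 CPM and fell to 0.868. The largest decreases were in CXXC5, a CXXC zinc finger gene, at a ratio of 0.614 and in the ligase gene LIG3 at 0.665. NEIL2, a DNA glycosylase gene, was the lowest with counts at 1.44 ± 0.0983 CPM (adjusted p = 0.0194 against 1 CPM, edgeR quasi-likelihood).

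Of the 5 matched readers of methylated DNA, 3 were lower in replicate 3 and MBD1 was higher. MBD1 averaged 40.6 ± 3.52 CPM and MBD6, a protein with a methyl-CpG-binding type domain, 28.3 ± 1.99 CPM. ZBTB4 fell to a ratio of 0.628, and MBD5, the lowest, to 0.613. Of the 7 genes listed under methyl donor supply, 3 were lower and 1 higher, with a median of −0.10. Whether AHCYL1, which is among the lower genes, has a part in that supply was not tested. AHCY, which clears S-adenosylhomocysteine, averaged 410 ± 9.45 CPM with a ratio of 1.03 that passed only against replicate 2. MAT2A, which makes the methyl donor S-adenosylmethionine, averaged 332 ± 21.98 CPM and was higher by a ratio of 1.11, while AHCYL1 and MTR fell to ratios of 0.901 and 0.786.

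**Figure D5:**
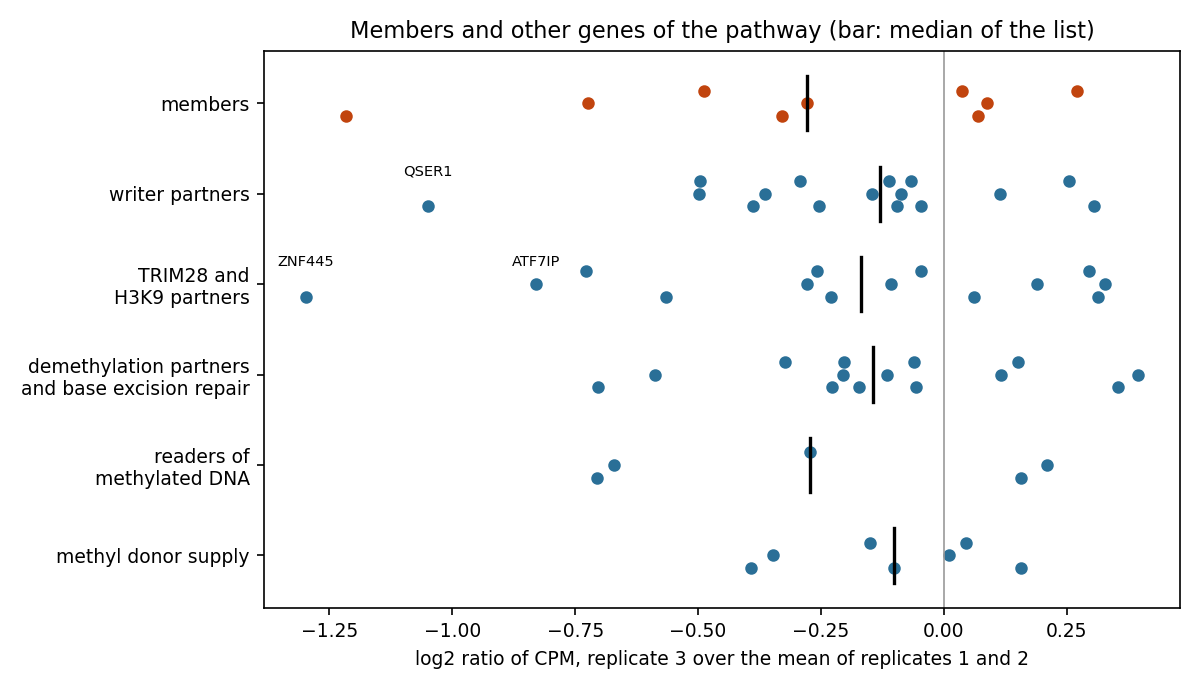
Log2 ratio of replicate 3 to the mean of replicates 1 and 2 (horizontal axis) for the 9 members (red) and the 56 other genes with counts (blue) in 5 lists (vertical axis), with a black bar at each list's median. The list medians lie between −0.28 for the members and −0.10 for methyl donor supply, and QSER1, ZNF445 and ATF7IP are named because they lie below −0.8.

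Genes with a pattern like that of a member were sought among 7174 other genes with a symbol that averaged 10 CPM or more, by the Euclidean distance of log2 CPM after the gene's own mean was subtracted, over 3 libraries. Such a pattern holds little more than the step in replicate 3. Within a distance of 0.1, 1381 genes lay near DNMT3B, 812 near TET1 and 72 near DNMT1, or 19.2%, 11.3% and 1.004% of those compared. The closest were EPN2, SDAD1 and TRIOBP to DNMT3B, EDEM3, CIT and RANBP2 to TET1, and METTL16, SALL4 and ACACA to DNMT1. SALL4, a transcription factor gene of pluripotent cells, had 58.5 CPM in replicate 3, against 135 and 134 CPM in replicates 1 and 2.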

How the data were processed

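RNA was sequenced in 3 libraries of 1 group. The submitters' processing notes name Trim Galore (0.4.0), STAR (version 2.5.3a) and, for counting, featureCounts (1.5.2). The authors deposited whole-number counts per Ensembl gene ID without normalization. Not given in the sources used here are the genome build, annotation, strand setting and handling of shared reads. In a RefSeq gene table of another marmoset assembly, the spans of DNMT3A, UHRF1, TET1, TET2, TET3 and TDG overlap other genes (GLT8D2 for TDG). Only whole spans were compared, without exons or strand, so whether these genes share counted reads was not tested. Of 30811 genes, 12660 matched a symbol, and 7379 had no counts.

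CPM values were made from the deposited counts with edgeR 4.0.16 in R 4.3.3, using TMM factors. Each of 23432 genes was tested against 1 CPM in a model with an intercept alone, by an edgeR quasi-likelihood F statistic taken from deviances and bounded below by the Poisson p-value (prior degrees of freedom 4.68). For 2 libraries at a time, each gene was tested with the exact conditional binomial test, in which the smaller tail was doubled. This compares libraries, not conditions. P-values were adjusted by Benjamini-Hochberg over all genes at 0.05. DESeq2 1.42.0 was an alternative. The code was tested on simulated data. Intervals cover counting error only, since the reads carry no molecular identifiers. The limit that 0 counts allow, 3 counts, was 0.0736 CPM in replicate 3, and 0.0573 and 0.0546 CPM in replicates 1 and 2.

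The 9 members and the lists were chosen with earlier results of these data known. The named genes are all members and, per list, the 3 with the highest mean CPM, the lowest with counts, those without counts, and the 2 with the largest log2 ratio of replicate 3 to the others among genes of at least 10 CPM. PCNA and LIG1 were named after their values were seen. Some genes that the rule names are not reported here. Genes without a matched symbol (DNMT3L, ZFP57, DPPA3, SMUG1 and others) were not analysed here. Levels per coding length and protein sequences were planned, but no lengths or sequences of the counted models were at hand. Orders, ratios and lowest members across genes are therefore of CPM without length scaling, not of transcript levels.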

Additional observations from a re-analysis of the deposited data

How the results depend on the processing

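No paired analysis was possible because the libraries form a single group. All 9 members stayed above 1 CPM with DESeq2 size factors, total counts only, a filter of 10 counts, the DESeq2 Wald statistic, each replicate left out and replicates 1 and 2 summed; genes above 1 CPM numbered 13129 and, without a replicate, 12974 to 13318. A difference of at least 1.5-fold lowered the counts of differing genes from 10760 to 3811 (replicate 3 against 1), from 10859 to 3935 (replicate 3 against 2) and from 1606 to 250 (replicate 2 against 1), and of members from 9 to 2, 9 to 2 and 2 to 0. Halved counts gave 234 genes and 1 member, DNMT3B, for replicate 2 against 1, and with DESeq2 size factors TRIM28 was called there as well. No other scaling (total counts, DESeq2 size factors) turned the direction of a member. Differences per coding length were not run, as no lengths were at hand; ratios of counts took their place, a choice made after seeing the data, as was the test on genes with a symbol only. TET2 and DNMT1 have the fewest counts and the widest intervals, and replicate 3 the lowest depth.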
